A study of Mus musculus with 4 samples.

Results

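The comparison described here is between islets of transgenic male mice that carried an E2 implant for 6 weeks and islets of transgenic male mice without an implant. E2 stands for estradiol. Each group is 1 Agilent mouse array, so the comparison is a description of 2 arrays and carries no test. Of 55681 probes that are not controls, 26367 were well above background on both arrays. Reduced to 1 probe per gene, 14620 of 22340 named genes were measured on both.

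All mice of the series were C57BL/6 and 24 weeks old per the labels. The untreated transgenic males (male Tg) are called diabetic in the labels, and the implanted males (male Tg E2) carry the same abbreviation Tg. Wild-type males (male WT) and transgenic females (female Tg), 1 array each, are used below only as levels printed beside the pair. Where only 4 levels are listed, they run from the wild-type to the untreated, the implanted and the female array. The transgene and its promoter, the dose of the implant, the sex hormone status of the females and the number of mice behind each array are not given in the sources used here. Islets were freed with collagenase, separated on a density gradient and picked by hand, so the RNA of any other cells carried along is part of each array.

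Estradiol acts through the nuclear estrogen receptors, encoded by Esr1 and Esr2, and through the membrane receptor GPER1. In rodents with diabetes it is known to protect islet beta cells, and males of many diabetic mouse lines are more severely affected than females. Beta cells secrete insulin, alpha cells glucagon and delta cells somatostatin, and beta cells under long exposure to high glucose are known to lose the products that mark their mature state.

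A level is the log2 processed signal of a gene's probe minus the 75th percentile of its array, so that 0 is the signal of that percentile. A difference is the level of male Tg E2 minus that of male Tg. The ± value is a standard error built from the error model of the scanner software. It had a median of 0.205 over the measured genes and covers error within an array, not the spread between mice. The 75th percentile of raw intensity was 230 on the untreated array and 337 on the implanted array, spots well above background made up 52.0% and 52.2%, and no spot was saturated.

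Many more genes were lower than higher on the implanted array. At least 2-fold higher were 383 genes, 2.62% of those measured, and at least 2-fold lower were 1159, 7.93%. At 4-fold the counts were 42 (0.287%) and 248 (1.7%). All measured genes together had a median difference of 0.13, and differences taken from that median gave 256 higher and 1362 lower genes. Among the 3655 dimmest genes 11.7% were at least 2-fold lower, against 4.68% of the 3655 brightest. Of 594 genes well above background on the untreated array only, 253 had a bound of at least 2-fold lower, and of 559 seen on the implanted array only, 97 had a bound of at least 2-fold higher.

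**Figure D1:**
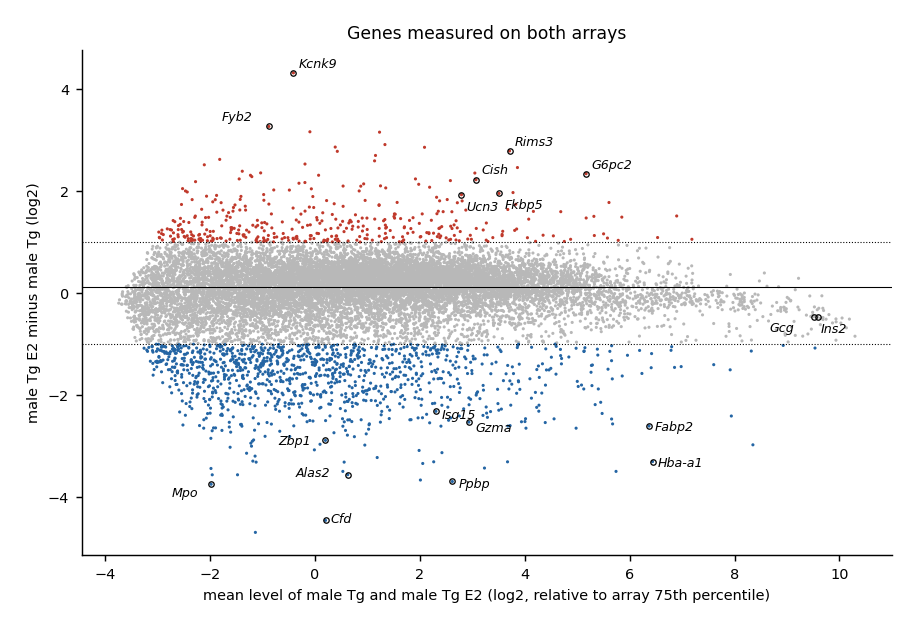
Difference between male Tg E2 and male Tg (log2) against the mean level of both arrays, 1 point per measured gene. Red marks the 383 genes at least 2-fold higher, blue the 1159 at least 2-fold lower, dotted lines the 2-fold limits and the solid line the median of 0.13. Kcnk9 is the highest point, and the insulin and glucagon genes lie at the bright end between the limits.

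The transcripts of mature beta cells were higher on the implanted array, while the islet hormone genes stayed within 2-fold. The sign of the hormone median depended on the scaling. Of 19 measured genes for beta cell maturity and glucose sensing, 8 were at least 2-fold higher and 0 lower. Across all measured genes 2.62% were higher and 7.93% lower. The list had a median difference of 0.93 against 0.13 over all genes. Its 1 member below 0 was the receptor gene Adcyap1r1 at −0.96 ± 0.24. Taken from the median of all genes, Adcyap1r1 passes 2-fold lower. Of the 20 genes on the list 9 are also on another list, Prlr and Gipr among them. Ucn3, which encodes urocortin 3 of mature beta cells, had a level of 6.23 on male WT, 1.83 on male Tg, 3.76 on male Tg E2 and 5.02 on female Tg. Its difference was 1.93 ± 0.20, a 3.80-fold higher signal with the implant. G6pc2, the islet glucose-6-phosphatase subunit, stood at 6.69, 4.0, 6.34 and 5.50 in the same order, a difference of 2.34 ± 0.20. Trpm5, a cation channel that opens with calcium, stood at 3.22, −1.08, 1.23 and 2.35, a difference of 2.31 ± 0.21. In all 3 genes the untreated array was the lowest of the 4 and the implanted array lay between it and male WT.

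Gad1, which makes GABA, had a difference of 2.24 ± 0.25, with levels of 3.25 on male WT, −2.56 on male Tg and −0.32 on male Tg E2. Sytl4, the granule protein granuphilin, had 2.07 ± 0.20, Cox6a2, a subunit of cytochrome oxidase, 1.77 ± 0.20 and the incretin receptor gene Gipr 1.07 ± 0.20. Gipr lies close to the 2-fold limit and does not pass it when taken from the median of all genes. Slc2a2, the glucose transporter GLUT2, differed by only 0.20 ± 0.20, from 3.05 on male Tg to 3.24 on male Tg E2, against 5.30 on male WT. The glucose transporter was thus close to its untreated level on the array on which Ucn3 and G6pc2 were well above theirs.

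Among beta cell transcription factors 12 of 13 measured genes were above 0, with a median difference of 0.72. At least 2-fold higher were 2, against 2.62% of all measured genes. These were Nkx6-1, needed for beta cell identity, at 1.12 ± 0.20 with levels of 6.13, 3.99, 5.11 and 5.43 on the wild-type, untreated, implanted and female arrays, and Rfx6 at 1.03 ± 0.20. Both lie close to the 2-fold limit, and taken from the median of all genes neither passes it. Pdx1 had a difference of 0.64 ± 0.21 and Mafa of 0.28 ± 0.20. Hnf4a, which is also a gene of liver and gut, was the member below 0, at −0.61 ± 0.20. Of 10 measured regulators and markers of alpha and delta cells 1 was at least 2-fold lower and 0 higher, with a median of 0.24. Across all measured genes 7.93% were lower and 2.62% higher, so 1 lower gene of 10 lies near the share over all genes. The lower one was Slc38a5, an amino acid transporter of alpha cells, at −1.14 ± 0.20, and Irx1 was at 0.35, Irx2 at 0.27 and Hhex at −0.59.

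None of the 8 islet hormone genes reached 2-fold. Ins1 stood at 9.79 on male WT, 10.44 on male Tg, 9.93 on male Tg E2 and 9.91 on female Tg, and Ins2 at 9.10, 9.82, 9.35 and 9.18. The differences were −0.51 ± 0.20 for Ins1, −0.47 ± 0.20 for Ins2, −0.46 ± 0.20 for Gcg, −0.34 ± 0.20 for Sst and −0.06 ± 0.20 for Ppy. With quantile normalization Ins1 was at 0.23 and Sst at 0.10, so the sign of these genes was not settled.

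Of 22 measured genes that beta cells normally keep silent, or that appear when they lose identity, 7 were at least 2-fold lower and 0 higher. Across all measured genes 7.93% were lower and 2.62% higher. Of the 22, 4 were above 0 and the median was −0.69. Ldha, lactate dehydrogenase A, stood at 4.22 on male WT, 6.51 on male Tg, 4.83 on male Tg E2 and 4.68 on female Tg, a difference of −1.68 ± 0.20. Fgf21, a stress hormone of liver and pancreas, differed by −2.74 ± 0.21, and the gut peptide genes Cck and Gast by −1.59 ± 0.20 and −1.20 ± 0.21. Cxcl12 and Arhgdib of this list are also expressed by stroma and leukocytes. Aldh1a3, an aldehyde dehydrogenase often used as the marker of dedifferentiated beta cells, was not among them: its levels were 0.51, 3.03, 3.24 and 2.78 on the wild-type, untreated, implanted and female arrays, a difference of 0.21 ± 0.20. Neurog3, a factor of endocrine progenitors, stood at 2.04, 2.96, 3.80 and 3.03, a difference of 0.83 ± 0.20, and Serpina7 differed by 0.48 ± 0.21. In all 3 genes the implanted level was the highest of the 4 arrays.

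Exocrine RNA differed between the arrays as well. The summed signal of 30 acinar genes, in units of each array's 75th percentile, was 1560.04 on male WT, 21219 on male Tg, 12921 on male Tg E2 and 1675 on female Tg. Its part in the differences of islet genes was not tested. In these bulk samples fewer cells of a type and less RNA per cell cannot be told apart.

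The machinery of secretion had medians above that of all genes and few members past 2-fold. The 28 measured genes of granule docking and exocytosis had a median of 0.42, with 23 above 0 and 1 at least 2-fold higher. That gene was Rims3, a presynaptic scaffold protein, with levels of 5.77 on male WT, 2.32 on male Tg, 5.10 on male Tg E2 and 4.15 on female Tg and a difference of 2.79 ± 0.20. The 14 granins and prohormone processing genes had a median of 0.32. Pcsk1n, an inhibitor of prohormone convertase 1, passed 2-fold at 1.05 ± 0.20, while Chga at −0.05, Chgb at 0.12 and Pcsk2 at 0.29 did not. Pcsk1n lies close to the limit, and taken from the median of all genes it does not pass.

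Among ion channels and receptors the share of genes at least 2-fold higher was 3 of 26 for potassium channels and 3 of 25 for islet G protein-coupled receptors, against 2.62% of all measured genes. Kcnk9, which encodes the two-pore potassium channel TASK3, had the largest increase of all measured genes. Its levels were −2.30 on male WT, −2.57 on male Tg, 1.75 on male Tg E2 and −0.11 on female Tg, so the implanted array was 19.9-fold above male Tg and also above both other arrays. The difference was 4.32 ± 0.25. The probe lies on chromosome 15 at 72338278 to 72338337 of the mouse build mm9, as the array design gives it. Of 26 measured potassium channel genes 3 were at least 2-fold higher, the others being Kcnmb2 at 1.47 ± 0.21 and Kcnn3 at 1.1 ± 0.22, and 1 was lower, Kcnmb4 at −1.31 ± 0.23. Kcnn3 does not pass the limit when taken from the median of all genes. Abcc8 and Kcnj11, the subunits of the ATP-sensitive channel that couples glucose to secretion, had differences of 0.36 ± 0.20 and 0.83 ± 0.21. Cacna1d, an L-type calcium channel of beta cells, had 1.34 ± 0.21, and Scn4b, a sodium channel subunit, −1.79 ± 0.28. Of 25 measured islet G protein-coupled receptors 3 were at least 2-fold higher and 0 lower. The higher ones were the purine receptor P2ry1 at 1.81 ± 0.20, the somatostatin receptor Sstr3 at 1.16 ± 0.20, and Gipr as above. Adcyap1r1 of this list, at −0.96 ± 0.24, passes 2-fold lower when taken from the median of all genes.

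**Figure D2:**
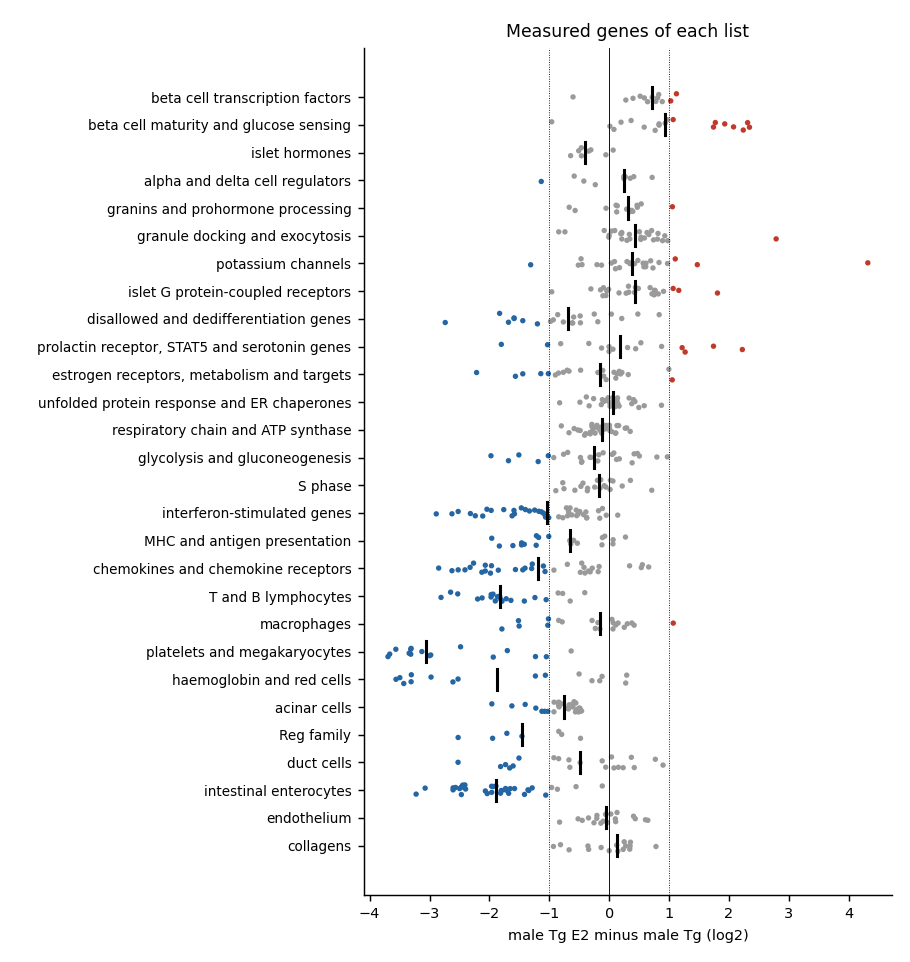
Difference between male Tg E2 and male Tg (log2) of every measured gene in 28 lists, 1 point per gene, with a black bar at each list's median. Red and blue points lie at least 2-fold higher and lower. Beta cell maturity genes have a median of 0.93, interferon-stimulated genes of −1.04 and platelet genes of −3.07.

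The receptors for estradiol lay within 2-fold or below background. Esr1 was not well above background on either array. Esr2 stood at 2.95 on male WT, 2.85 on male Tg, 2.96 on male Tg E2 and 3.29 on female Tg, a difference of 0.11 ± 0.20 whose sign depended on the scaling. Gper1 differed by −0.90 ± 0.24, and passes 2-fold lower when taken from the median of all genes. Of 24 measured genes on a list of estrogen receptors, estrogen metabolism and estrogen targets, 1 was at least 2-fold higher and 5 were lower. Across all measured genes 2.62% were higher and 7.93% lower. Of the 31 genes on the list 7 are also on another list, Cxcl12 among them.

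The higher gene was Greb1, a coactivator of the estrogen receptor and a classical estrogen target. Its levels were −1.82, −1.42, −0.37 and −2.43 on the wild-type, untreated, implanted and female arrays, a difference of 1.05 ± 0.22, and another probe of the gene gave 2.11. The difference of 1.05 does not pass 2-fold when taken from the median of all genes. The implanted array was the highest of the 4. The lower genes were Areg (amphiregulin, an EGF receptor ligand) at −2.22 ± 0.21, Hsd17b2 (which inactivates estradiol) at −1.57 ± 0.31, Cxcl12 at −1.44, the complement gene C3 at −1.14 and Esrrb at −1.02. Tff1, an estrogen target in human breast cells and a gastric mucosal gene, had a level of 2.58 on male Tg and was not well above background on the other 3 arrays. It was at least 89.8-fold lower with the implant. For this gene the array design places the probe on chromosome 5, whereas RefSeq has the gene on chromosome 17. The full palindromic estrogen response element GGTCANNNTGACC, read on both strands, was found in 0 of the 34 promoter windows of this list in RefSeq and in 0.0700% of all 32851 windows. With so rare a motif, its absence from 34 windows carries no information about the list.

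Of 16 measured genes of the prolactin and growth hormone receptors, STAT5 and serotonin, 4 were at least 2-fold higher and 2 lower. Across all measured genes 2.62% were higher and 7.93% lower. The list had a median of 0.18 against 0.13 over all genes. The receptors signal through the transcription factor STAT5, and Cish and Socs2 are feedback inhibitors that STAT5 switches on. Cish stood at 3.35 on male WT, 1.96 on male Tg, 4.18 on male Tg E2 and 2.61 on female Tg, a difference of 2.22 ± 0.20. Socs2 stood at 1.40, 0.30, 1.52 and 0.59, a difference of 1.22 ± 0.21. The receptor genes Prlr and Ghr had differences of 1.74 ± 0.20 and 1.27 ± 0.20. The untreated array was the lowest of the 4 in each of these 4 genes. On Cish and Socs2 the implanted array was above male WT also, and on Prlr and Ghr it was below it. Other genes of the list did not share this order: Socs3 and Socs1, other inhibitors of cytokine signalling, were at 0.06 and −1.03, Bcl6, a transcriptional repressor, at −0.81, and Tph1, of serotonin synthesis, at −1.80 ± 0.24.

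Not all of that list went the same way: of 16 measured, 4 were at least 2-fold higher and 2 lower. Tph1, the enzyme that starts serotonin synthesis and a known prolactin target in islets of pregnancy, was lower, at −1.80 ± 0.24, and so was Socs1 at −1.03 ± 0.23. Stat5a and Stat5b had differences of 0.31 and 0.53. The Cish promoter is shown because 2 copies of the STAT5 motif TTCNNNGAA, in capitals, start at bases 1 and 12 of the transcript as RefSeq places it (GRCm38.p6, chr9:107296409-107296708, plus strand, 250 bases before to 50 after the start).
Cish: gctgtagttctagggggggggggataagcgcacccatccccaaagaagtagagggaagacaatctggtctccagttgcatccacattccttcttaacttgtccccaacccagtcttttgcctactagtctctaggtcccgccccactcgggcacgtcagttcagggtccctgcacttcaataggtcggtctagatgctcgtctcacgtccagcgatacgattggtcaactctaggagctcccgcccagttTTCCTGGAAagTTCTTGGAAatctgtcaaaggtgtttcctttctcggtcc
The motif, which is its own reverse complement, was found in 8.30% of all promoter windows, in 7 of 29 windows of this list, and in 7.42% of those of genes at least 2-fold higher. A match is a description of the letters only.

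A set of genes known to respond to glucocorticoids, several of which also respond to androgen or progesterone, was put together after their values had been seen. All 15 were measured, 4 were at least 2-fold higher and 0 lower, with a median of 0.33 against 0.13 over all genes. The other 11 lay within 2-fold, from −0.06 for Sgk1 to 0.92 for Klf9. Across all measured genes 2.62% passed the limit upwards and 7.93% downwards. Because members were picked with their values known, the count of 4 is a description and cannot be weighed against these shares. Fkbp5, a chaperone that binds steroid receptors, stood at 3.47, 2.53, 4.49 and 2.68 on the wild-type, untreated, implanted and female arrays, a difference of 1.95 ± 0.20. Zbtb16, a zinc finger transcription factor, stood at −2.02, 0.36, 2.08 and −1.61, a difference of 1.72 ± 0.20. Hif3a differed by 1.74 ± 0.22 and Cebpd by 1.45. Tsc22d3 and Sgk1, which belong to the same set, were at 0.03 and −0.06. Fkbp5, Zbtb16 and Hif3a were highest on the implanted array by at least 2-fold over each other array.

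Genes induced by interferon were lower almost throughout. Of 42 measured, 22 were at least 2-fold lower and 0 higher, 41 were below 0 and the median was −1.04. Zbp1, a sensor of viral nucleic acid, stood at −2.18 on male WT, 1.65 on male Tg, −1.24 on male Tg E2 and −0.31 on female Tg, a difference of −2.89 ± 0.21. Cxcl10, a chemokine that draws T cells, stood at −0.99, 1.11, −1.41 and 0.47, a difference of −2.52 ± 0.22. Isg15, a ubiquitin-like protein, stood at 0.38, 3.47, 1.15 and 1.39, a difference of −2.32 ± 0.20. Irf7, the factor that amplifies the interferon response, differed by −1.97 ± 0.24, and Oasl1, Oasl2 and Oas1a, of the family that senses double-stranded RNA, by −2.24, −2.11 and −2.04. The untreated array was the highest of the 4 in Zbp1, Cxcl10 and Isg15, and the implanted array differed from male WT by 0.93, −0.42 and 0.77. With normexp background correction the number at least 2-fold lower was 16, and the median −0.72.

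The promoters of 3 of these genes are shown, with each match to the interferon response motif GAAANNGAAA or its reverse complement TTTCNNTTTC in capitals. They are RefSeq windows of GRCm38.p6, 250 bases before to 50 after the start, written in the direction of the gene. The matches start 78 to 66 bases before the start site in Isg15 (chr4:156200769-156201068, minus strand), 213 bases before it in Cxcl10 (chr5:92348840-92349139, minus strand) and 104 and 85 bases before it in Ifit1 (chr19:34640639-34640938, plus strand).
Isg15: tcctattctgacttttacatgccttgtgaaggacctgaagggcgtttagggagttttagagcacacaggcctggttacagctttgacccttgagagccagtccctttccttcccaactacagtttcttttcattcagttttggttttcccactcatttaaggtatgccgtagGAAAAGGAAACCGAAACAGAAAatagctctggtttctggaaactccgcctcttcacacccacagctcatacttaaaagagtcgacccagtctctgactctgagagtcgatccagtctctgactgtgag
Cxcl10: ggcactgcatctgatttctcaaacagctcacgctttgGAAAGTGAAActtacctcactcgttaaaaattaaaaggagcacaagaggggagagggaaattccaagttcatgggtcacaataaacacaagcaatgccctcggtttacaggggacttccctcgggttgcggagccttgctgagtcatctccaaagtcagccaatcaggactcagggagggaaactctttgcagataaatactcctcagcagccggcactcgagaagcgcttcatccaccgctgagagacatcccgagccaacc
Ifit1: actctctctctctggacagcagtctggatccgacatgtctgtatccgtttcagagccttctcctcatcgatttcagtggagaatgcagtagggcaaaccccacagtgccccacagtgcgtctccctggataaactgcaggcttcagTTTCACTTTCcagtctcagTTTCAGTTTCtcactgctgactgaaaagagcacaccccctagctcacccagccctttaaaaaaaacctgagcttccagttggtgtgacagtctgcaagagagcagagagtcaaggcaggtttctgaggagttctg
In Isg15 the 3 matches overlap and form a run of GAAA repeats. The motif was found in 3.44% of all 32851 windows and in 3.99% of the genes that have a window. Of the 32 genes of the interferon list with a window, 19 held it, which is 59.4%. Within the list, 9 of 17 genes at least 2-fold lower held it, and so did 8 of 13 measured genes that were not 2-fold lower. Over all measured genes at least 2-fold lower the share of windows was 6.55%, against 3.07% for all measured genes and 2.56% for those at least 2-fold higher.

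Antigen presentation, chemokines and lymphocyte genes were lower together with the interferon genes. Of 21 measured genes of antigen presentation 10 were at least 2-fold lower and 0 higher. These were the class II genes H2-Ab1 (−1.46), H2-Aa (−1.46), H2-Eb1 (−1.22), H2-DMa, H2-DMb1 and H2-Oa, their invariant chain Cd74 (−1.22), and B2m (−1.42), Tap1 (−1.01) and Nlrc5 (−1.96 ± 0.22), which serve class I. The class I heavy chain genes H2-K1 and H2-D1 differed by −0.63 and −0.53. Near-identical copies among the H2 genes can share a probe's signal.

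Of 34 measured chemokine and chemokine receptor genes 19 were at least 2-fold lower and 0 higher, with a median of −1.19. Ccl2, which recruits monocytes, stood at −1.91 on male WT, 1.49 on male Tg, −0.92 on male Tg E2 and −0.41 on female Tg. Ccl5, released by T cells, stood at 1.91, 4.18, 2.11 and 3.77, and Cxcl13, which attracts B cells, at −0.96, 3.02, 0.95 and 2.49. Their differences were −2.41 ± 0.21, −2.07 ± 0.20 and −2.07 ± 0.20. Ccl25 is less certain: the probe used gave −2.32 and another probe −0.46.

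All 22 measured markers of T and B lymphocytes were below 0, 18 of them at least 2-fold lower, with a median of −1.82. Cd3g, a chain of the T cell receptor complex, stood at −3.02, 0.16, −2.04 and −0.09 on the wild-type, untreated, implanted and female arrays. Ms4a1 of B cells stood at −0.94, 2.75, 0.96 and 2.66. Gzmb, the granzyme of killer cells, had a difference of −2.81 ± 0.24 and Jchain, of antibody-secreting cells, of −2.65 ± 0.20. The summed signal of the lymphocyte markers was 30.8 on male WT, 169.6 on male Tg, 49.9 on male Tg E2 and 125.1 on female Tg. The part of lymphocyte RNA in the interferon and chemokine differences was not tested.

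Macrophage markers were split. Of 21 measured, 5 were at least 2-fold lower and 1 higher, against 7.93% and 2.62% of all measured genes. The median was −0.16. Adgre1, encoding the macrophage antigen F4/80, had a difference of 0.30, Cd68 of 0.15 and Csf1r, the receptor for macrophage colony-stimulating factor, of 0.11. The lower members included Ptprc (−1.79 ± 0.21), Cd53 and Laptm5, which all leukocytes carry. Their summed signal was 69.3, 103.5, 90.3 and 101.6 on the wild-type, untreated, implanted and female arrays.

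Of 7 measured granulocyte markers 3 were at least 2-fold lower and 0 higher, with a median of −0.44. Across all measured genes 7.93% were lower and 2.62% higher. Another 5 markers were well above background on the untreated array only, 3 of them with bounds of at least 2-fold lower. Mpo, the myeloperoxidase of neutrophils, differed by −3.75 ± 0.35, and S100a8 and S100a9 by −1.57 and −1.58. Elane, neutrophil elastase, was at 0.17 and Csf3r, a cytokine receptor of neutrophils, at −0.01. The summed signal of the granulocyte markers was 96.6 on male WT, 108.0 on male Tg, 102.3 on male Tg E2 and 85.3 on female Tg. A sum weighs the brightest members most. The median level of the 7 measured markers was 0.20 on male Tg and −0.82 on male Tg E2. Of the inflammatory cytokines Il1b was at −1.20 ± 0.22, Il6 had a bound of at least 6.90-fold lower, and the interleukin 1 receptor gene Il1r1 was higher at 1.23 ± 0.20. Relb, of the NF-kB family, was at −1.14, but its other probes ran from −1.60 to 1.18. Inflammatory caspases were also lower, Casp1 at −2.0 ± 0.21 and Casp4 at −1.42 ± 0.21. Of 22 measured genes of the BCL2 family and apoptosis 6 were at least 2-fold lower and 0 higher, against 7.93% and 2.62% of all genes.

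**Figure D3:**
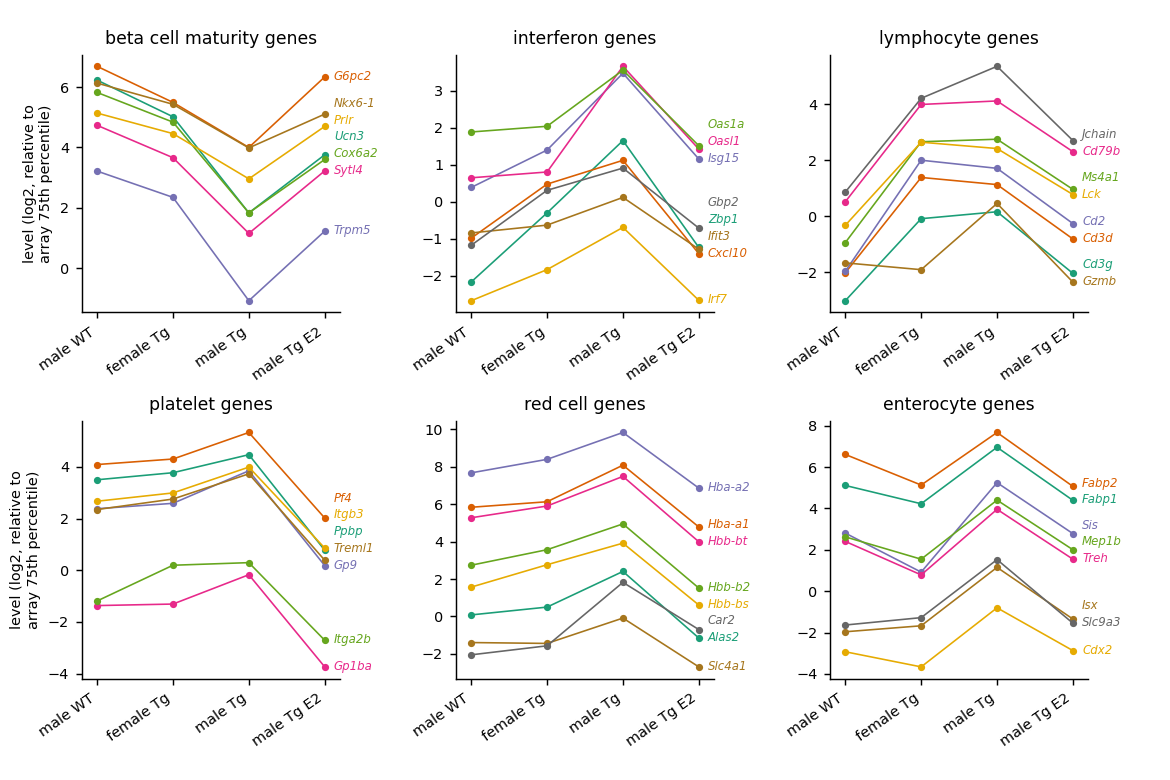
Levels (log2, relative to the array's 75th percentile) of 7 or 8 genes from each of 6 lists on the 4 arrays, 1 array per group. Lines join the same gene, and gene names at the right are spread so as not to overlap. Beta cell genes are lowest on the untreated array, the interferon, red cell and enterocyte genes shown are highest there, and the platelet genes are lowest on the implanted array.

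Platelet genes had the lowest median of the 51 lists. Of 16 measured, 15 were at least 2-fold lower, with a median of −3.07, and another 4 had bounds of at least 2-fold lower. Ppbp, a platelet chemokine precursor, stood at 3.50 on male WT, 4.47 on male Tg, 0.77 on male Tg E2 and 3.77 on female Tg, a 12.9-fold lower signal with the implant. Pf4, platelet factor 4, stood at 4.09, 5.33, 2.02 and 4.30. Itga2b, a chain of the platelet fibrinogen receptor, stood at −1.19, 0.29, −2.71 and 0.19. The differences were −3.69 ± 0.20, −3.31 ± 0.20 and −3.00 ± 0.25. In these genes the implanted array was lowest of all, below the wild-type and female arrays too. Nfe2 and Gp6 had bounds of −3.77 and −3.87.

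Red cell genes showed the same direction. Of 16 measured, 10 were at least 2-fold lower and 0 higher. Hba-a1, an alpha globin gene, stood at 5.84, 8.09, 4.78 and 6.13 on the wild-type, untreated, implanted and female arrays, a difference of −3.30 ± 0.20. Alas2, the first enzyme of haem synthesis in red cells, stood at 0.08, 2.41, −1.15 and 0.50, a difference of −3.56 ± 0.21. Hbb-bt and Slc4a1, the red cell anion exchanger, differed by −3.50 and −2.61. The globin genes come in near-identical copies whose probes may share signal. The summed signal of the red cell list was 355.7, 1482, 214.9 and 535.9, and that of the platelet list 65.9, 154.6, 21.6 and 81.2.

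None of 19 measured endothelial genes was 2-fold different, and their median was −0.06. Cdh5, the cadherin of endothelial junctions, stood at 0.58 on male Tg and 0.55 on male Tg E2, and Kdr, a VEGF receptor, at 4.54 and 4.09. Vwf, which platelets and endothelium share, was −1.94 ± 0.20.

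RNA of the exocrine pancreas was lower by a smaller amount. All 30 measured acinar genes were below 0, with a median of −0.75, and 7 were at least 2-fold lower. With quantile normalization 4 were, and the median was −0.42. Rbpjl, a transcription factor of acinar cells, differed by −1.96 ± 0.20 and Ctrc, chymotrypsin C, by −1.63 ± 0.20. Abundant enzymes differed less, with Cpa1 at −0.49, Cel at −0.68 and Pnlip at −0.67. The implanted array nonetheless kept far more acinar RNA than male WT, as Ctrc shows with levels of 0.51 on male WT, 6.67 on male Tg, 5.05 on male Tg E2 and 0.65 on female Tg.

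The Reg genes, secreted lectins of injured pancreas and gut, were all below 0, and 4 of 7 were at least 2-fold lower. Reg3a stood at −0.07, 5.20, 2.68 and −1.03 on the wild-type, untreated, implanted and female arrays, and Reg3g at −2.06, 5.18, 3.23 and −1.03. Of 21 measured duct genes 6 were at least 2-fold lower and 0 higher, against 7.93% and 2.62% of all measured genes. Of the 21, 8 were above 0 and the median was −0.49. Among the lower ones were Krt19, a keratin of duct epithelium, at −1.61 ± 0.20, Car2 at −2.52 and Tff3 at −1.51.

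A group of genes of the absorbing cells of the small intestine was also lower. The list was written after some of its members had been seen among the lower genes, so its count is a description. Of 35 measured, 31 were at least 2-fold lower, all 35 were below 0 and the median was −1.89. Sis, the brush border enzyme sucrase-isomaltase, stood at 2.81 on male WT, 5.25 on male Tg, 2.78 on male Tg E2 and 0.92 on female Tg, a difference of −2.46 ± 0.20. Fabp2, the intestinal fatty acid binding protein, stood at 6.61, 7.67, 5.07 and 5.13, a difference of −2.61 ± 0.20. Cdx2, the transcription factor that specifies intestine, stood at −2.93, −0.80, −2.87 and −3.66. Slc9a3, a sodium and proton exchanger of the brush border, differed by −3.07 and Isx, an intestinal homeobox gene, by −2.50. The summed signal of the list was 423.8, 1133, 304.3 and 200.8 on the wild-type, untreated, implanted and female arrays. Krt20 and Lgals4 of this list are also on the duct list, and whether intestinal tissue was carried along was not tested.

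None of the 16 measured collagen genes reached 2-fold, and their median was 0.13, with Col1a1 at 0.35 and Col3a1 at −0.14. The lowest of them, at −0.93, passes 2-fold lower when taken from the median of all genes. Col15a1, a basement membrane collagen, was above background without the implant only and at least 2.05-fold lower with it. Of 18 genes of stellate cells, fibroblasts and pericytes 3 were at least 2-fold lower and 0 higher, against 7.93% and 2.62% of all genes, with a median of −0.70: Pdpn at −1.37, Dpt at −1.20 and Acta2, smooth muscle actin, at −1.12. Of 5 measured fat cell genes 2 were at least 2-fold lower and 0 higher, with 2 above 0 and a median of −0.71. Cfd, which encodes the adipocyte protease adipsin, stood at −4.51, 2.43, −2.02 and −2.53 on the wild-type, untreated, implanted and female arrays and had a 21.95-fold lower signal with the implant. Cidec, of lipid droplets, was at −1.86 ± 0.21, Fabp4, a fatty acid carrier, at −0.71, Lipe, the hormone-sensitive lipase, at 0.08 and Pck1 at 0.05. Adipoq and Retn were above background without the implant only and had bounds of −2.15 and −2.75.

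Several large functional classes had no member at 2-fold. None of 30 measured genes of the unfolded protein response and ER chaperones was 2-fold different, with a median of 0.06. Hspa5, the chaperone BiP, stood at 7.17 on male Tg and 7.11 on male Tg E2, and Ddit3, encoding CHOP, at 0.63 and 0.37. The same held for 40 genes of the respiratory chain and ATP synthase (median −0.12) and for 25 of the citrate cycle (median 0.01). It also held for 16 genes of G2 and M phase (median −0.32) and 14 D cyclins and cyclin kinase inhibitors (median 0.04). The sign of the median depended on the scaling for the unfolded protein response, citrate cycle and D cyclin lists. Mki67, a marker of dividing cells, was nearest to the limit, at −0.94 ± 0.21. Taken from the median of all genes, Mki67 and Birc5, at −0.90, pass 2-fold lower. Of the 16 genes of G2 and M phase 14 were below 0. Among genes of S phase none of the 20 measured on both arrays reached 2-fold (median −0.18), and 14 were below 0. Mcm5, at −0.89, passes 2-fold lower when taken from the median of all genes. Cdc6, which loads the replicative helicase, was above background without the implant only and was at least 2.57-fold lower with it.

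Metabolic genes showed single differences. Of 26 measured glycolysis and gluconeogenesis genes 5 were at least 2-fold lower and 0 higher, against 7.93% and 2.62% of all measured genes. Among the lower ones were Fbp2, Ldha, G6pc and Pfkp. G6pc, of liver, kidney and gut, was at −1.51 ± 0.21. Of 29 measured genes of cholesterol and fatty acid synthesis 2 were at least 2-fold lower and 1 higher, with a median of −0.15. These shares lie near the 7.93% lower and 2.62% higher of all measured genes. One of the lower genes was Scd1, a fatty acid desaturase, at −1.07 ± 0.21. Bnip3, a mitophagy receptor induced by hypoxia, was higher at 1.60 ± 0.20, with other probes from 1.31 to 1.77, and Car9, another hypoxia target, lower at −1.10 ± 0.20. Of the insulin and IGF pathway, Foxo3 was at 1.57 ± 0.21, Igfbp3 at 1.41 and Igfbp5 at −1.62. Aqp3, a water and glycerol channel, was at −3.56 ± 0.30.

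The untreated array stood apart from the other 3 for more genes than the implanted array did. Over 13894 genes well above background on all 4 arrays, the untreated array was at least 2-fold above the highest of the other 3 for 535 genes and at least 2-fold below the lowest for 143. The same counts for the implanted array were 36 above and 27 below, or 0.259% and 0.194%. Male WT also stood apart for many genes, with 144 above and 677 below, and female Tg had 18 and 69.

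The 36 genes that were highest with the implant were led by Fyb2, an adaptor protein gene, at −2.08, −2.51, 0.76 and −2.83 on the wild-type, untreated, implanted and female arrays. Asb9, of a ubiquitin ligase family, followed at 0.09, −0.16, 2.43 and −1.74. The set also held Fetub and Fgb, which encode plasma proteins made in liver, Siah1a, Lcn2, Foxo3, Trem2, Klf11, Kcnk9, Zbtb16, Hif3a, Fkbp5 and Greb1. Fetub stood at −2.65, −0.17, 1.92 and −2.25 and Fgb at −4.08, −3.36, −0.85 and −2.72. Of the 27 genes that were lowest, 11 are on the platelet list and 5 on the red cell list. Dnase1, which digests DNA outside cells and is on neither, stood at 1.07, 1.22, −1.29 and 0.79.

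**Figure D4:**
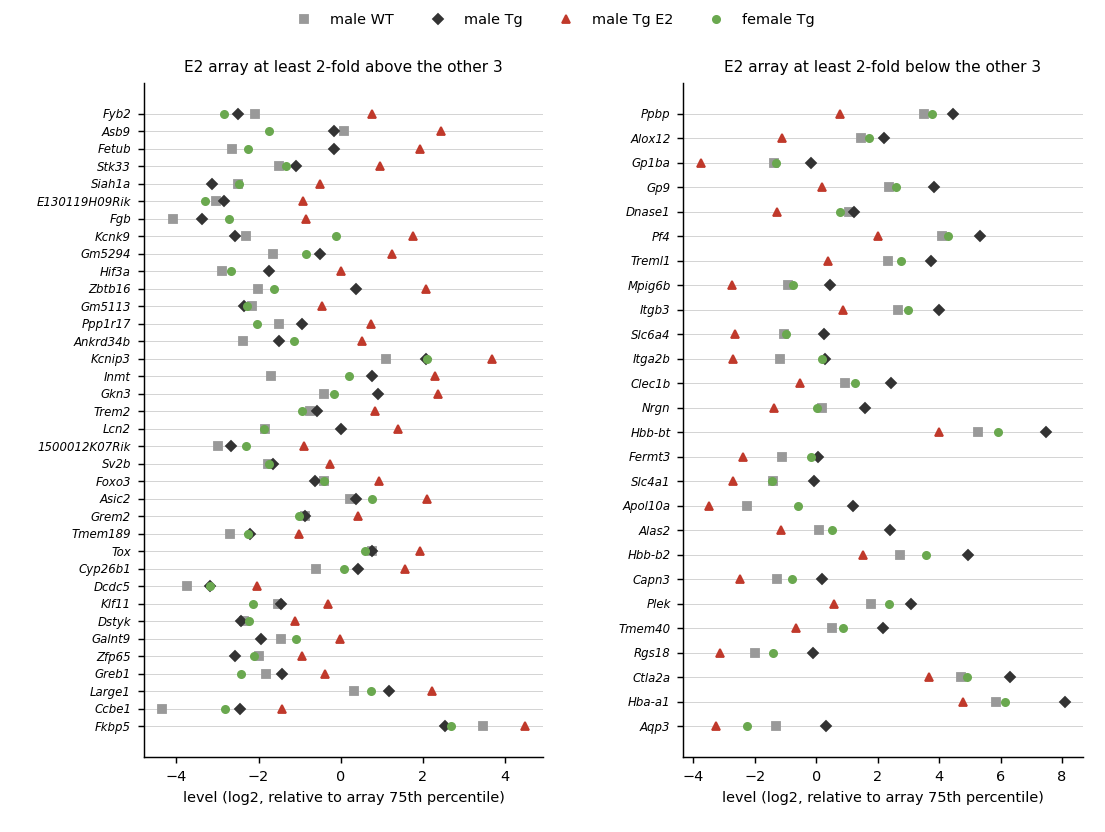
Levels (log2, relative to the array's 75th percentile) on each of the 4 arrays, 1 array per group, of the 36 genes at least 2-fold above (left) and 26 of the 27 at least 2-fold below (right) all other arrays on the implanted array. Red triangles mark the implanted array. Fyb2 and Asb9 lie farthest above, and the platelet genes Ppbp and Alox12 farthest below.

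Some of the largest differences belong to genes outside these lists. S100z, of the S100 family of calcium-binding proteins, had 3.15 ± 0.21, Galnt18, a glycosyltransferase gene, 2.91 ± 0.21 and Cib3, a calcium-binding protein gene, 2.78 ± 0.21. For Azin2, Fbxo16 and Zdhhc22 the probes of the gene disagreed: the probes used gave 3.16, 2.70 and 2.86, and the others 0.08, −0.06 and −1.38. The lowest of all was Apol10a, an apolipoprotein L family gene, at −4.69 ± 0.30, followed by Cfd. Tdh, threonine dehydrogenase, was at −3.50 ± 0.21, with a level of 2.28 on male Tg against −3.39 on male WT, −1.21 on male Tg E2 and −3.25 on female Tg. Mptx1, a mucosal pentraxin gene, passed the background limit with the implant only and was at least 6.11-fold higher. Gkn2, a stomach gene, passed it without the implant only and was at least 17.0-fold lower. Of 3911 measured probes for long noncoding RNAs and chromosome intervals without a gene name, 4.14% were at least 2-fold higher and 5.19% lower.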

How the data were processed

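Total RNA of islets was labelled with Cy3 and hybridised to 1-colour Agilent arrays, 1 per group. The authors deposited scanner output with processed intensity per spot; per the file headers it was made with Feature Extraction 10.7.1.1, whereas the submitters' processing notes name 9.5.1.1, and probe positions are on mm9. The log2 of the deposited processed intensity was taken here, spots with outlier flags were dropped, each array's 75th percentile over its 59305 non-control spots was subtracted, and spots of a probe were averaged. Genes were named through RefSeq (GRCm38.p6) by accession for 27325 probes and by symbol or synonym for 4074, leaving 24282 unnamed. Where a gene has several probes, the brightest on average over the 4 arrays stands for it. A gene counts as measured when it is well above background on both arrays and as higher or lower at 2-fold. A gene well above background on only 1 array has a bound, set against the higher of its own signal on the other array and the lowest signal well above background there. Where 1 array stands for a group there is no test, and nothing in the differences separates the implant from mouse, islet isolation or array.

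The authors' series matrix, of unstated scale in the sources used here, holds linear intensities with the same quantiles on every array and served as an alternative. Its direction is that of the scanner values, and its median is 25.9 in each column. Other alternatives were median centring, quantile normalization, normexp with an offset of 50 (limma 3.58.1 in R 4.3.3), no background filter, a filter at the array's median, the median over a gene's probes, and calls that also exceed 3 standard errors. The 2-fold calls were tried on arrays simulated from the levels of the untreated array, with planted changes and only the scanner's error-model noise. That simulation holds no spread between mice or islet isolations, so it cannot show how reliable a 2-fold call between single arrays is. The 51 gene lists and the rule for named genes were chosen with earlier results of these data known; 3 list names were not found in RefSeq. The rule takes the 15 genes highest and lowest, the 5 largest bounds, up to 5 genes per list and direction past 2-fold, and a set of hormone, receptor and beta cell genes. The lists of enterocyte genes and glucocorticoid targets, the comparison with all other arrays, and further single genes named for their role were added after values were seen. Of 35 named genes with several measured probes, 3 had a probe of opposite sign. Some genes are not reported here.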

Additional observations from a re-analysis of the deposited data

How the results depend on the processing

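No paired analysis was possible because each group is 1 array and the groups share no replicate. No result that was 2-fold changed sign under an alternative. The counts of genes at least 2-fold higher and lower were 190 and 758 with normexp and 926 and 2447 with no background filter, and the count of genes below all other arrays on the implanted array was 16 with normexp. Under median centring, quantile normalization, the series matrix, the filter at the array's median, the median over probes and the 3 standard errors the counts stayed within 1.5 times those reported.

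The median of the islet hormones became 0.033 with quantile normalization, 0.042 with normexp and 0.11 with the series matrix, so its sign depends on scaling, and acinar genes went to −0.42, −0.38 and −0.33 and Reg genes to −1.22, −1.18 and −1.21. With normexp alone the medians were −0.72 for interferon, −0.73 for chemokine, −2.30 for platelet, −1.41 for red cell, −0.45 for aquaporin, −0.18 for duct and −0.43 for stellate cell genes. With no background filter they were −0.48 for the estrogen list, −0.75 for granulocytes, −1.16 for red cells and −1.86 for adipocytes. Granulocytes gave −0.22 both with the filter at the array's median and with the median over probes, and rest on 7 measured genes. The causes were not tested. Dim genes limit the comparison: the standard error of the 3655 dimmest genes had a median of 0.251, against 0.204 for the 3655 brightest.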
